A study of Mus musculus with 16 samples.

Results

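The transporters for organic ions, drugs and sugars described here are the mouse genes whose single platform symbol begins with Slc22a, Slco, Slc17a, Slc47a, Slc2a, Slc5a, Abcb, Abcc or Abcg. The rule used names only, and it found 47 genes on 54 probes among 9669 genes with 1 platform symbol. Of these, 41 genes on 47 probes were measured on 3 or more of the 4 arrays of every mouse from W1 to W4, and these were tested. The 6 genes that did not reach this were Abcc4, Slc22a14, Slc22a18, Slc2a12, Slc2a3 and Slc2a4rg-ps. The last of these matches a prefix only by its letters, being a pseudogene of a regulator of Slc2a4, and is no transporter. No gene of the Abcg family met the rule on this platform.

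The samples were right kidneys of 5 wild-type male littermates, W1 to W5, of a mixed C57BL/6 and 129Sv background, at 88 ± 2 days of age. The labels name no engineered allele and no treatment for any group, and each mouse gave 1 kidney. The comparison addresses how far transcript levels vary between individual normal mice. Each of W1 to W4 was hybridised against W5 on 4 two-colour arrays, with the mouse in channel 1 on the odd-numbered arrays and in channel 2 on the even-numbered ones, which makes 16 arrays with W5 on every one.

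Organic anion and cation transporters move drugs, urate and metabolic waste across the epithelium of the proximal tubule. Members of the Slc22a family take such ions up from the blood side, and members of the Slc22a, Slc17a, Slc47a, Abcb and Abcc families handle them at the side facing the urine. Slc5a proteins couple sugar to sodium on the urine side, and Slc2a proteins let sugar pass down its gradient, while Slco proteins exchange bulky anions such as bile acids, steroid conjugates and thyroid hormones.

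Values are log2 ratios of a mouse to W5, with the SE (standard error) of the fit. Its variance was pooled for each probe over the arrays of all 4 mice and moderated by limma. The SE therefore does not measure the spread of a mouse's own arrays. The numerator of the deposited ratio is not given in the sources used here, so no statement says which kidney held more of a transcript. A positive value lies on side A, the side of W5 on which Slc17a3 lay, and a negative value on side B. The range of a gene is the span from its lowest to its highest kidney, where W5 counts as 0. A gene was called when the adjusted p of limma's moderated test, by Benjamini-Hochberg over all 15715 probes tested, was under 0.05. The 4 arrays per mouse repeat the hybridisation of its RNA, so a call concerns these RNA extracts and not mice in general. In whole kidney, fewer cells of a type and less RNA per cell cannot be told apart.

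The arrays held values for 80.2% to 91.1% of 20205 probes, and 47 to 53 of the 54 transporter probes had a value on a given array. Residual SDs ran from 0.153 to 0.174 on the arrays of W1 and from 0.208 to 0.231 on those of W4. Ratios give no absolute level, so the kidney label could not be checked from these values. Of 9 early proximal tubule markers, 6 had a probe with 1 platform symbol, and these passed the filter. The same held for 6 of 8 markers of the third segment, and Lrp2, Aqp1 and Kap were among those that passed. All 4 liver markers passed as well, so passing the filter does not tell tissues apart.

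The 5 kidneys differed in 8 of the 41 transporters, namely Slco1a6, Slc22a7, Slc17a3, Slc5a10, Slc5a1, Slco4a1, Slc22a2 and Slco2b1. This is 19.5% of the transporters, beside 336 of 8005 named genes, or 4.20%. The genes that differed were all carriers of the SLC superfamily, 8 of 31 tested, and 0 of the 10 ABC transporters tested were called by limma, of which 0 reached an unadjusted p under 0.05; this split by superfamily was made after the values were seen. Among all 41 genes, 13 had an unadjusted p under 0.05, or 31.7%, beside 1460 of 8005 named genes, or 18.2%. Of the called genes, 2 (Slco1a6 and Slc17a3) were on side A in every mouse, beside 1.25% of named genes, and 3 (Slc5a10, Slc5a1 and Slco4a1) on side B in every mouse, beside 0.962%. The other called genes, Slc22a7, Slc22a2 and Slco2b1, had mice on both sides of W5, beside 1.99% of named genes. The median range was 0.27 over the transporters and 0.23 over all named genes, so the typical transporter ranged little more than the typical gene. The number called depended on which mice were included, with 4 without mouse W1, 5 without W2, 6 without W3 and 4 without W4 (where 3.26% of named genes were called), and it was 5 without the dye term. Slco1a6 and Slc22a7 were called in each of the 29 alternative analyses of this test.

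**Figure D1:**
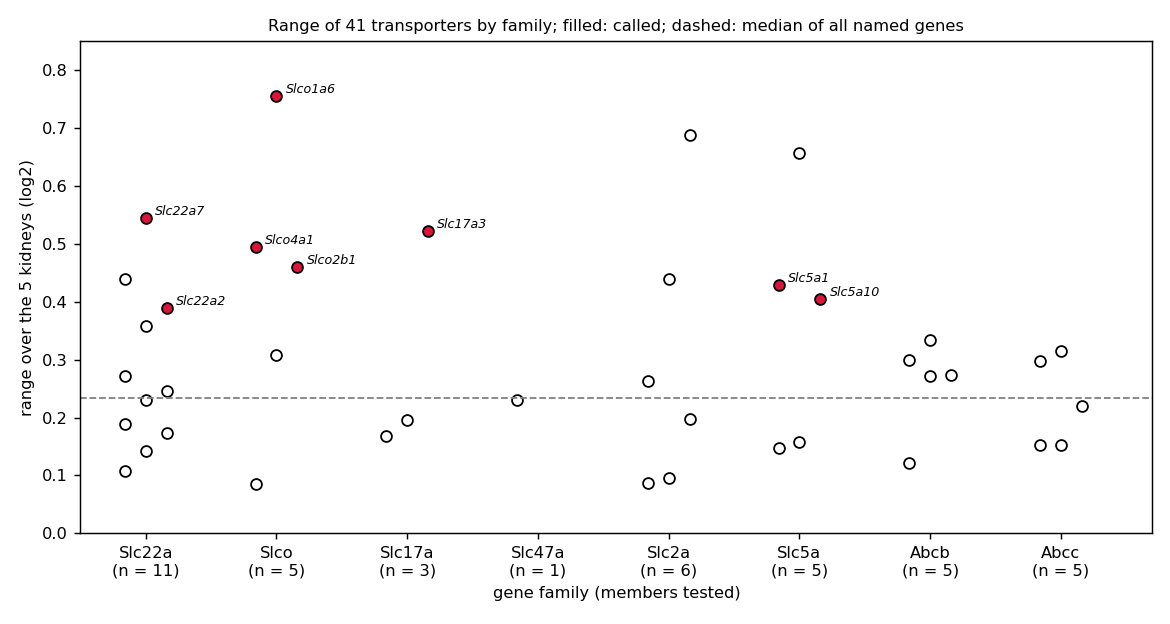
Each point is a transporter, placed by family on the x axis and by its range over the 5 kidneys (log2) on the y axis, with filled points for the 8 called genes and a dashed line at 0.23, the median of all named genes. Filled points occur in the Slc22a, Slco, Slc17a and Slc5a families, and the 10 points of Abcb and Abcc are open and lie between 0.12 and 0.33.

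Slco1a6, a rodent organic anion transporting polypeptide, had the largest range of the 41 transporters at 0.76, which is 1.69-fold. The arrays of W1 gave 0.60, 0.87, 0.80 and 0.76, and those of W2 gave 0.48, 0.56, 0.34 and 0.50. W3 gave 0.36, 0.55, 0.10 and 0.34, and W4 gave -0.03, 0.55, 0.23 and 0.86. The arrays of W1 all lay above those of W2 and W3, whereas W4 had the widest spread, with 1 array on side B and another at 0.86. The fit estimated 0.76 ± 0.09 for W1, 0.47 ± 0.09 for W2, 0.34 ± 0.09 for W3 and 0.40 ± 0.09 for W4 (SE, n = 4 arrays each; limma adjusted p = 2.3e-05 in the 5-kidney test). W1, W2 and W4 each differed from W5 in limma's test of pairs (adjusted p = 0.0001, 0.0076 and 0.026), and W3 did not reach the threshold (adjusted p = 0.11). Differences between W1, W2, W3 and W4 did not pass in any of their 6 pairs, where the largest, W1 against W3, was 0.42 (adjusted p = 0.36).

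Slco1a6 was the only transporter called when the mean of the 4 littermates, each counted as 1 replicate, was set against W5. In that test 33 of 8005 named genes were called, or 0.412%. The mean over the 4 mice was 0.49 ± 0.18 (SD, n = 4 mice; limma adjusted p = 0.021), on the same side of W5 in 4 of 4 mice. This call was lost without mouse W1 (adjusted p = 0.055), without mouse W2 (0.1) and without array W4.4 (0.069). It was also lost without both W4.3 and W4.4, the pair of arrays with the fewest values (0.115). With a spread for W5 itself equal to that between its littermates, limma called 0 of the 41 transporters, and the adjusted p of Slco1a6 was 0.9999. Slc5a1 and Slc17a3 stood next, with adjusted p = 0.052 and 0.069 in the same test. Slc5a1 was called beside Slco1a6 after scaling of the arrays, in a fit of 1 probe per gene, with robust variances and without array W3.4, and Slc5a1 and Slc17a3 both were among probes measured on all 16 arrays.

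**Figure D2:**
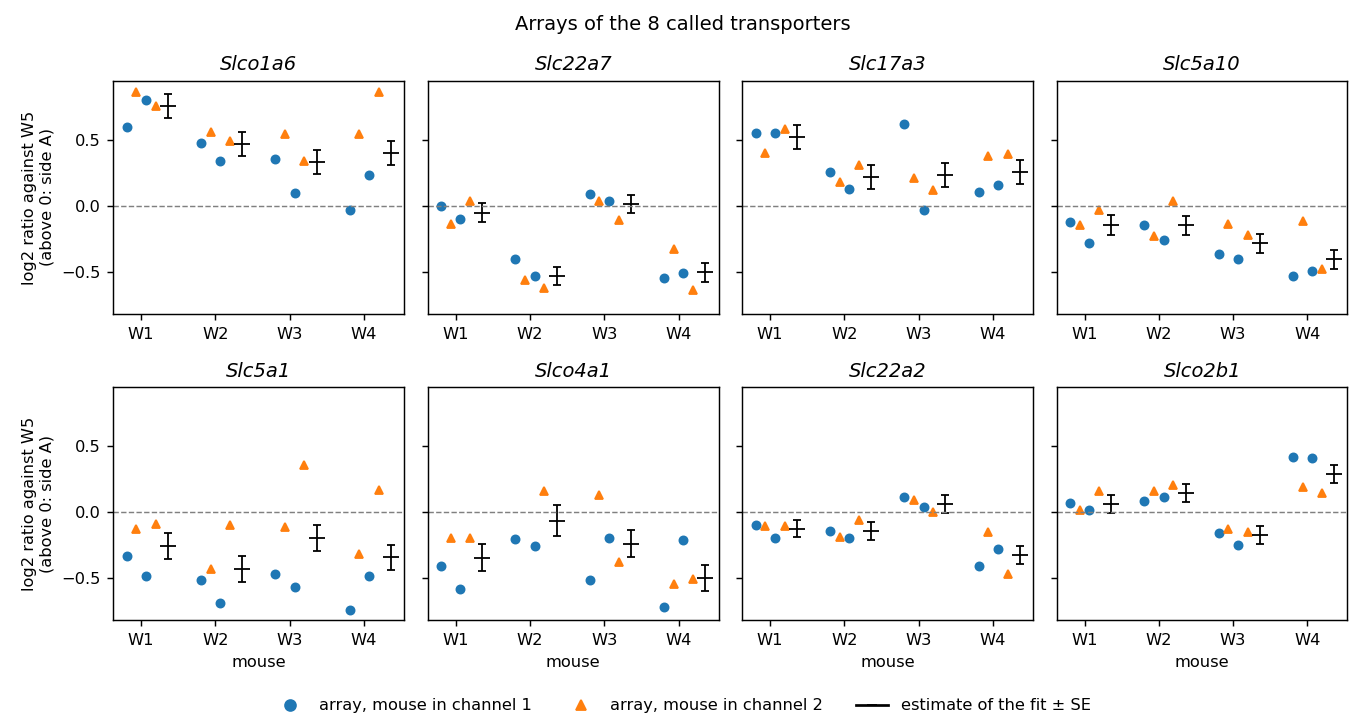
Each panel is 1 called transporter, with the mouse on the x axis and the log2 ratio against W5 on the y axis; circles are arrays with the mouse in channel 1, triangles arrays with it in channel 2, and the crossbars the estimate of the fit ± SE. The arrays of W2 and W4 lie on side B of W5 in the panel of Slc22a7, at -0.32 to -0.64, and the circles lie below the triangles of the same mouse in that of Slc5a1.

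Slc17a3, a urate and organic anion transporter of the urine-facing membrane, had the profile most like that of Slco1a6 (cosine of the 5 kidney values centred on their mean 0.97, over 5 kidneys that share arrays and W5). The arrays of W1 gave 0.55, 0.40, 0.55 and 0.58, and those of W2 gave 0.26, 0.18, 0.13 and 0.31. W3 gave 0.62, 0.21, -0.03 and 0.12, and W4 gave 0.11, 0.38, 0.16 and 0.39. W1 lay above every array of W2 and W4, and 1 array of W3 lay above all others. The estimate was 0.52 ± 0.09 in W1, with 0.22, 0.23 and 0.26 in W2, W3 and W4 (limma adjusted p = 0.0031), and W1 against W5 was the only pair called (adjusted p = 0.0057). Without mouse W1 the call was lost (range 0.26, adjusted p = 0.15). Next in likeness to both genes came Slc17a7, a vesicular glutamate carrier, with a cosine of 0.94 to Slc17a3 and 0.86 to Slco1a6, whose values, 0.06 to 0.20 in the 4 mice and all on side A, were not called (adjusted p = 0.22). The neighbour of Slc17a3 on chromosome 13, Slc17a1, which also carries urate and phosphate, had a range of 0.17 and a cosine of 0.12 to Slc17a3, and was not called (adjusted p = 0.72).

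The 250 bases before the start of Slco1a6 and Slc17a3 are shown because these genes had the most alike profiles among the called transporters, and those of Slc5a10 because its window held the motif searched, which those of the other 6 called transporters with an entry in the table did not; Slc22a7 has no entry and was not searched. The sequences are RefSeq's for GRCm38.p6, 5′ to 3′ on the gene's strand, at chr6:142186150-142186399 on the minus strand for Slco1a6, chr13:23839184-23839433 on the plus strand for Slc17a3 and chr11:61720800-61721049 on the minus strand for the first of the starts listed for Slc5a10. Capitals mark the match to GTTAAT, part of the site of HNF1, a factor of proximal tubule and liver, which in Slc5a10 lies on the opposite strand and begins 75 bases before the start.
Slco1a6: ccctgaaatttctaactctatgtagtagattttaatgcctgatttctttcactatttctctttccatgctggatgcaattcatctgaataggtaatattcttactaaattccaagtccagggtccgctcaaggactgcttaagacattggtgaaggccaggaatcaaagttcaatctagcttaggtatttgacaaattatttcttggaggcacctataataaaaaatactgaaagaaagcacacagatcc
Slc17a3: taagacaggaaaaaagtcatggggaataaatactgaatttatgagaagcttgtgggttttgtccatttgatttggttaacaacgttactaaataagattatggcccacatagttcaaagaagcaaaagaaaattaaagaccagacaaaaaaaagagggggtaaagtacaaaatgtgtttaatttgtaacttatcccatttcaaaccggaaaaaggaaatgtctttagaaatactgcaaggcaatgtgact
Slc5a10: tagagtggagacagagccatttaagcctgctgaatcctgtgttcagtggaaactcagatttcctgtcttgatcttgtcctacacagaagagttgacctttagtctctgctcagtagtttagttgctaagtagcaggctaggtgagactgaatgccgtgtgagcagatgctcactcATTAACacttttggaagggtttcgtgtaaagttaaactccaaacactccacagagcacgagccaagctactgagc

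GTTAAT, searched on both strands, occurred in 3 of 46 windows of 39 transporter genes that have an entry in the table, those of Slc22a6, Slc22a8 and Slc5a10, and in 6.43% of 32851 windows of all genes. TATAAA, searched in the same way, occurred in 1 transporter window, that of Abcb6, and in 12.4% of all windows. Neither set of letters occurred in the windows of Slco1a6 or Slc17a3. The motifs and the windows shown were chosen after the values of the genes were seen, and a match is a description of the letters only.

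Slco4a1, which carries thyroid hormones and prostaglandins, and Slco2b1, a carrier of steroid conjugates and drugs, completed the called members of the Slco family. This family had 3 of 5 genes called, beside 4.20% of named genes. For Slco4a1, measured on 15 arrays, W1 gave -0.40, -0.19, -0.58 and -0.19, and W2 gave -0.20, -0.25 and 0.16 on its 3 arrays. W3 gave -0.51, 0.13, -0.19 and -0.37, and W4 gave -0.72, -0.55, -0.21 and -0.51. All arrays of W1 and W4 lay on side B, but the mice overlapped. The fit gave -0.34 ± 0.10 for W1, -0.06 ± 0.12 for W2, -0.24 ± 0.10 for W3 and -0.50 ± 0.10 for W4 (limma adjusted p = 0.011), and W4 against W5 was called (adjusted p = 0.016). The call was lost without mouse W1 (adjusted p = 0.073) and without mouse W4 (adjusted p = 0.072).

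For Slco2b1 the arrays of W1 gave 0.07, 0.02, 0.02 and 0.17, those of W2 gave 0.09, 0.16, 0.12 and 0.21. W3 gave -0.16, -0.13, -0.24 and -0.15, and W4 gave 0.42, 0.19, 0.41 and 0.15. W3 was the mouse on side B and did not overlap with the others, and W4 reached farthest on side A. The range was 0.46 and the adjusted p 0.033 by limma, but the call was lost in 19 of 29 alternative analyses, among them each fit without 1 of the 4 mice, with adjusted p between 0.051 and 0.19 in those where it was lost. With a replicate block the adjusted p was 0.055. The second probe of Slco2b1 was not called, with a range of 0.21 and an adjusted p of 0.87. Its values of -0.04, 0.10, -0.11 and 0.02 in W1 to W4 put W3 lowest, as on the first probe, but it was noisier (technical SD 0.23 against 0.09), and the probes were not tested against each other. Of the remaining Slco genes, Slco6d1 had a range of 0.31 and Slco1c1, a carrier of thyroid hormone at the blood-brain barrier, had the smallest range of all 41 transporters at 0.08 (adjusted p = 0.95).

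Slc22a7, the organic anion transporter also known as Oat2, separated W2 and W4 from the other kidneys. Its arrays in W1 gave -0.0033, -0.13, -0.10 and 0.04, and those in W3 gave 0.09, 0.04, 0.04 and -0.11. W2 gave -0.40, -0.56, -0.53 and -0.62, and W4 gave -0.54, -0.32, -0.51 and -0.64. The 8 arrays of W2 and W4 all lay on side B and below every array of W1 and W3, which lay around W5. The fit estimated -0.05 ± 0.07 for W1, -0.53 ± 0.07 for W2, 0.02 ± 0.07 for W3 and -0.50 ± 0.07 for W4, a range of 0.54 or 1.46-fold (limma adjusted p = 7.3e-05 in the 5-kidney test). Slc22a7 was the only transporter called among W1 to W4 (limma adjusted p = 0.0069), a test in which W5 cancels and 66 of 8005 named genes, or 0.824%, were called. In all, 4 pairs of kidneys were called, W2 and W4 each against W5 (adjusted p = 0.00028 and 0.00061), W2 against W3 (difference -0.54 ± 0.10, adjusted p = 0.019) and W3 against W4 (0.52 ± 0.10, adjusted p = 0.03). W2 and W4 differed by 0.03 ± 0.10 (adjusted p = 0.95), and the differences of W1 from W2 and W4, 0.48 and 0.45, stayed above the threshold (adjusted p = 0.068 and 0.073). The call among W1 to W4 was lost when mouse W1, W2 or W3 was left out (adjusted p = 0.061, 0.07 and 0.11). The profiles most like that of Slc22a7 were those of Slc22a12, Slc17a1 and Abcb11 (cosine 0.90, 0.86 and 0.84), none of them called.

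Endothelial markers also differed in W2 and W4, on the opposite side from Slc22a7. All 3 endothelial markers tested, of 6 listed, were called in the 5-kidney test, beside 4.20% of named genes. Emcn lay at 0.51 in W2 and 0.59 in W4, Esm1 at 0.54 and 0.74, and Egfl7 at 0.45 and 0.26, all on side A. The same genes lay between -0.09 and 0.14 in W1 and W3. These markers had medians of 0.06, 0.51, 0.04 and 0.59 in the order W1 to W4. The early proximal tubule markers had medians of 0.172, 0.165, -0.032 and 0.102 in the same order. The loop of Henle marker Umod lay at -0.03, -0.16, 0.06 and -0.37 and was not called (limma adjusted p = 0.059). The markers of the third segment of the proximal tubule had medians of -0.11, -0.17, -0.11 and -0.29 in W1 to W4, with 2 of 6 called. The called markers were Napsa, at -0.56, -0.31, -0.30 and -0.54 in W1 to W4, and Gramd1b, at -0.31, -0.18, -0.21 and -0.46. W1 lay farther on side B than W2 in both genes. Of the uncalled markers, Acy3 and Cyp7b1 lay lowest in W2 and W4, and Atp11a in W1 and W2. Kap lay at -0.11, -0.25, -0.22 and -0.23 in W1 to W4, so W3 was about as low as W4. The dicarboxylate carrier Slc13a3 works on the blood side of the proximal tubule with the organic anion transporters. Like Slc22a7, it lay on side B in W2 and W4, with -0.27 ± 0.07 for W2 and -0.43 ± 0.07 for W4, while W1 and W3 gave 0.07 and 0.06 (limma adjusted p = 0.0043). Slc13a1, of the same family, lay on side A in W2 and W4, at 0.35 and 0.18, and was not called (adjusted p = 0.052). The blood-side transporter Slc22a8 lay on side A there too, at 0.26 and 0.19, and was not called (adjusted p = 0.2). The part of these cell types in the values of Slc22a7 was not tested.

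**Figure D3:**
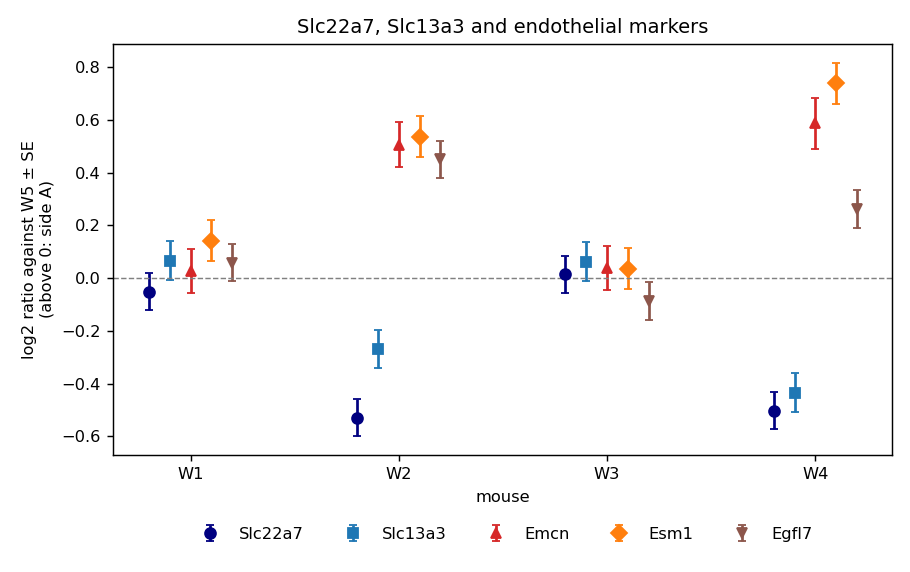
The log2 ratio against W5 (y axis, estimate ± SE) is plotted by mouse (x axis) for Slc22a7, Slc13a3 and the 3 endothelial markers tested. In W2 and W4 Slc22a7 and Slc13a3 lie on side B, at -0.27 to -0.53, and the endothelial markers on side A, at 0.26 to 0.74; in W1 and W3 the 5 genes lie between -0.09 and 0.14.

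Slc22a2, the organic cation transporter Oct2 of the blood side, was the other called Slc22a gene. The family had 2 of 11 tested genes called, beside 4.20% of named genes. The arrays of W1 gave -0.09, -0.10, -0.19 and -0.10, and those of W2 gave -0.14, -0.19, -0.19 and -0.06. W3 gave 0.12, 0.10, 0.04 and 0.01, and W4 gave -0.41, -0.15, -0.28 and -0.47. W3 lay apart on side A, and 3 arrays of W4 lay below every array of the other mice. The estimate in W4 was -0.32 ± 0.07 against 0.06 ± 0.07 in W3, a range of 0.39 (limma adjusted p = 0.027), and W4 against W5 was the only pair called (adjusted p = 0.017). This call was lost in 11 of 29 alternative analyses, with adjusted p of 0.081, 0.071, 0.056 and 0.297 without mouse W1, W2, W3 and W4. It was lost as well without any of the arrays W1.3, W2.2, W4.1, W4.3 and W4.4, with adjusted p from 0.053 to 0.1.

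Slc22a6 and Slc22a8, the blood-side organic anion transporters Oat1 and Oat3, are neighbours on chromosome 19 with no protein-coding gene between them, and neither was called. Slc22a6 had a profile close to that of Slc22a2 (cosine 0.99), at -0.13 ± 0.09, -0.10 ± 0.09, 0.07 ± 0.09 and -0.29 ± 0.09 in W1 to W4, but did not pass (adjusted p = 0.19). Slc22a8 lay at -0.05, 0.26, -0.17 and 0.19 in the same order, a range of 0.44, with all 4 arrays of W2 on side A and all 4 of W3 on side B (adjusted p = 0.2). Their cosine was -0.67, so these neighbours lay on opposite sides of W5 in W2, W3 and W4. The carnitine transporters Slc22a5 and Slc22a21, neighbours on chromosome 11, had a cosine of 0.89 with ranges of 0.23 and 0.25 (adjusted p = 0.53 and 0.38). Slc22a13, a urate and nicotinate transporter of the urine-facing membrane, lay at -0.21 in W1 and -0.27 in W4 and close to 0 in W2 (adjusted p = 0.16), with a profile like that of Slco4a1 (cosine 0.99). The urate transporter Slc22a12 had a range of 0.17 (adjusted p = 0.78), and Slc22a17, a receptor for lipocalin-2, had the smallest of the family at 0.11. Slc47a2, a proton-coupled exporter of organic cations and the single member of its family on the array, ranged over 0.23 (adjusted p = 0.72).

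Among sodium-coupled sugar carriers, Slc5a10, the fructose and mannose carrier Sglt5, and Slc5a1, the glucose carrier Sglt1, were called. These were 2 of 5 genes tested, beside 4.20% of named genes called. For Slc5a10 the arrays of W1 gave -0.12, -0.15, -0.28 and -0.03, and those of W2 gave -0.14, -0.22, -0.26 and 0.04. W3 gave -0.36, -0.14, -0.40 and -0.22, and W4 gave -0.53, -0.11, -0.50 and -0.47. Of the 16 arrays, 15 lay on side B, and 3 of 4 arrays of W4 lay lowest. The estimates were -0.14 ± 0.07, -0.15 ± 0.07, -0.28 ± 0.07 and -0.40 ± 0.07 in W1 to W4 (limma adjusted p = 0.0032), and W4 against W5 was called (adjusted p = 0.006). Without mouse W4 the call was lost (range 0.28, adjusted p = 0.054).

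For Slc5a1 the arrays of W1 gave -0.33, -0.13, -0.48 and -0.08, those of W2 gave -0.51, -0.43, -0.68 and -0.10. W3 gave -0.46, -0.11, -0.57 and 0.36, and W4 gave -0.74, -0.31, -0.48 and 0.17. In each mouse both arrays with the mouse in channel 1 lay lower than both arrays with it in channel 2, so the values depended on the channel, and the gene-specific dye term was called (adjusted p = 0.0092; the dye term was called in 13.7% of named genes). All 8 arrays with the mouse in channel 1 lay on side B, as did 6 of the 8 in channel 2. With the dye term the estimates were -0.26 ± 0.10, -0.43 ± 0.10, -0.19 ± 0.10 and -0.34 ± 0.10 in W1 to W4 (limma adjusted p = 0.0093), and W2 against W5 was called (adjusted p = 0.024). The call was lost without the dye term (adjusted p = 0.15) and without mouse W2 (adjusted p = 0.1). Its profile was most like that of Slc22a7 (cosine 0.82). Of the uncalled Slc5a genes, Slc5a9, a mannose and glucose carrier, had the widest range of the family at 0.66 with a technical SD of 0.33 (adjusted p = 0.28), and the inositol carrier Slc5a11 had the narrowest at 0.15.

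The facilitative sugar carriers of the Slc2a family had 0 of 6 genes called by limma, and 1 with an unadjusted p under 0.05, a share of 16.7% that is near the 18.2% of named genes. That gene was Slc2a8, a glucose carrier of inner membranes, which came nearest to the threshold of all uncalled transporters (adjusted p = 0.11). It lay at -0.19 ± 0.10 in W1 and -0.39 ± 0.10 in W4, with all arrays of both mice on side B, and near 0 in W2 and W3, and W4 against W5 was called as a pair. Slc2a4, the insulin-responsive carrier of fat and muscle, had a range of 0.69, the second widest of all 41 transporters, but its arrays in W4 spread from -0.96 to 1.49 and its technical SD was 0.57 (adjusted p = 0.59). Slc2a1, the widespread glucose carrier of the blood side, ranged over 0.20, the urate carrier Slc2a9 over 0.10 and the fructose carrier Slc2a5 over 0.09, with adjusted p of 0.58, 0.93 and 0.77.

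**Figure D4:**
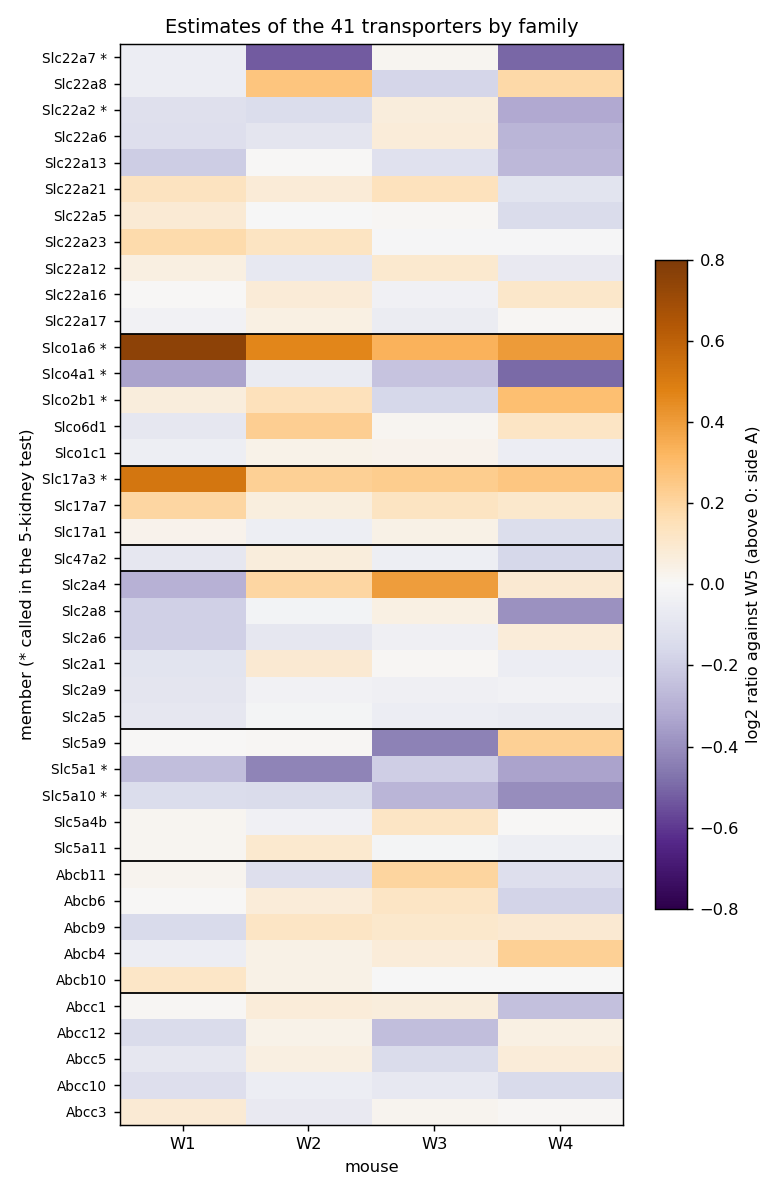
Each row is 1 of the 41 transporters, ordered by family, each column a mouse, and the colour the log2 ratio against W5 on the scale at the right, with an asterisk for the 8 called genes. Slco1a6 and Slc17a3 are on side A in all 4 columns with their strongest value in W1 (0.76 and 0.52), and the column of W4 holds the most negative values of Slc22a2, Slco4a1 and Slc5a10.

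The ABC transporters pump drugs, conjugates and lipids with energy from ATP. The widest range in Abcb was 0.33 for Abcb11, the bile salt export pump of the liver, followed by 0.30 for the porphyrin transporter Abcb6. The narrowest was 0.12 for the mitochondrial Abcb10, whose other probe ranged over 0.22 and was not called either. Abcb4, a phospholipid pump, ranged over 0.27 and lay at 0.22 ± 0.13 in W4 (adjusted p = 0.73), and Abcb9, a lysosomal peptide transporter, ranged over 0.27. In Abcc the widest range was 0.31 for Abcc1, a multidrug and glutathione conjugate exporter, with -0.24 ± 0.10 in W4 (adjusted p = 0.51), and the narrowest was 0.15 for Abcc3. The other probe of Abcc1 ranged over 0.43 and those of Abcc5 over 0.10 and 0.63, with adjusted p of 0.4, 0.93 and 0.41. Across the 10 genes the ranges came to 1.09-fold to 1.26-fold, and a p above the threshold does not show that these kidneys were alike in them.

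**Figure D5:**
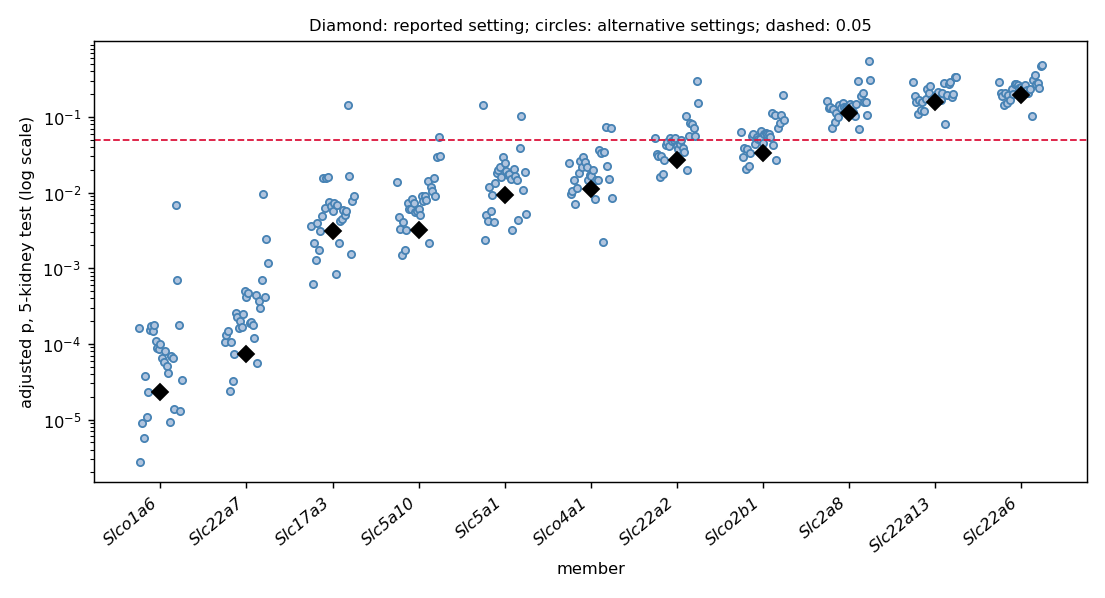
For the 8 called transporters and the 3 uncalled ones nearest to the threshold (x axis), the adjusted p of the 5-kidney test (y axis, log scale) is shown as reported (diamond) and under each alternative analysis (circles), with a dashed line at 0.05. The circles of Slco1a6 and Slc22a7 stay at or below 0.0068 and 0.0097, those of Slc22a2 and Slco2b1 lie on both sides of the line, and those of Slc2a8, Slc22a13 and Slc22a6 lie above it.

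Counted by role, 1 of 3 tested blood-side organic ion uptake genes was called (Slc22a2), beside 4.20% of named genes in the same test. Called as well were 1 of 5 tested genes of urine-facing organic ion and drug transport (Slc17a3) and 1 of 2 tested proximal tubule glucose carriers (Slc5a1). The glucose carriers Slc5a2 and Slc2a2 had no probe with 1 platform symbol. Of intracellular ABC transporters of the Abcb type, 0 of 3 were called by limma. Counted by pair of kidneys, W4 against W5 gave 7 transporter calls, beside 2.32% of named genes. W2 against W5 gave 3, beside 2.49%, and W1 against W5 gave 2, beside 0.937%. W3 against W5 gave 0, beside 0.575%, and 1 transporter, Slc22a7, was called in W2 against W3 and in W3 against W4, where 0.337% and 0.287% of named genes were called. The remaining pairs, W1 against W2, W3 and W4 and W2 against W4, gave 0 transporter calls by limma, beside 0.275%, 0.212%, 0.237% and 0.275% of named genes. Pairs with W5 rest on 4 arrays of direct comparison and share W5, so their counts are not independent.

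Of 25 partners and regulators of these transporters, such as the scaffold Pdzk1, the factors Hnf4a and Ppara and the sodium pump subunit Atp1b1, 13 were tested and 2 were called in the 5-kidney test, or 15.4%, beside 4.20% of named genes. Nr1h4, the bile acid receptor FXR, lay on side A in all 4 mice, at 0.49, 0.48, 0.57 and 0.90 ± 0.07 in W1 to W4 (limma adjusted p = 7.13e-08). Slc13a3, given above with Slc22a7, was the other. Pdzk1, which anchors transporters in the urine-facing membrane, lay at -0.11, -0.18, 0.0048 and -0.25 in W1 to W4 and did not pass (adjusted p = 0.1), and Hnf4a ranged over 0.18 (adjusted p = 0.39).

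Markers of other tissue parts differed between these kidneys as well, and their counts stand beside the 4.20% of named genes called. Of the early proximal tubule 3 of 6 tested markers were called, Slc7a7 and Ass1 on side A and Aqp1 on both sides, and of the collecting duct 3 of 4. The podocyte marker Podxl lay on side A, at 0.40, 0.68, 0.04 and 0.47 in W1 to W4, and was called. The adipose markers Fabp4, Cidec and Car3, which were 3 of 3 tested, were on side B in every mouse, and their medians were -0.37, -0.36, -0.64 and -0.53. Of leukocyte markers 0 of 4 tested were called by limma, with 2 at an unadjusted p under 0.05, and of liver markers 1 of 4. The part of these tissues in the transporter values was not tested.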

How the data were processed

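The deposited values are log2 ratios; per the labels, the authors subtracted background from mean intensities and set the median of the ratios to 1. The values themselves gave the log base: 1.56% to 5.01% of them per array fell no more than 2e-06 from log2 of some ratio of small whole numbers, against at most 0.126% for log10 and 0.0345% for natural log. For the dye of each channel, the numerator and the reason for empty cells, the sources used here give nothing.

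Signs were turned on arrays with W5 in channel 1. After this, the mean of the 4 mice in the same orientation was subtracted from each array, and a mouse's arrays were averaged within each orientation. The averages of opposite orientation correlated across probes at 0.157, 0.0795, 0.0598 and 0.111 in W1 to W4. Limma 3.58.1 in R 4.3.3 fitted 4 mouse coefficients and a gene-specific dye term to the 15715 of 20205 probes with values on at least 3 of 4 arrays of each mouse. F tests asked whether the 5 kidneys, or W1 to W4, differ, moderated two-sided tests compared the 10 pairs, and the test of W5 used the 4 means of the arrays per mouse against 0, which leaves out the spread of W5. Benjamini-Hochberg adjustment of p-values ran over all tested probes, separately for each test. The scripts were tested on simulated data. Platform annotation named 1 gene for 11723 probes, several for 806 and none for 7676. Where a gene had several probes, the probe with most values stood for it, ties going to the first identifier. Left out were 4 probes listed with several genes including a family name. Of these, a probe with Mrps6 and Slc5a3 passed the threshold (range 0.51, limma adjusted p = 0.0022), on side B in every mouse. The other probe of these genes did not (adjusted p = 0.15). A tested probe with Slc5a2 and Rusf1 did not either (adjusted p = 0.84), and the other probe of that pair failed the filter.

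Genes named are those called in the 5-kidney, W1 to W4 or W5 test, the widest and narrowest of each family, the 3 uncalled genes nearest the threshold, listed kidney transporters and other probes of the same gene. Of the 3 most alike profiles of each called gene, only some are named. The members and lists were chosen with earlier results of these data known. Alternatives changed the dye term, array weights, scaling, filters, probe choice, variance estimate, block, arrays and mice.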

Additional observations from a re-analysis of the deposited data

Results flagged for a closer look

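Among the 41 transporters, Slc22a7 differed between W2 and W3 by -0.5444 (limma adjusted p = 0.019) and between W3 and W4 by 0.5184 (adjusted p = 0.03), where each mouse was measured against the same W5.

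In 4 of 157 groups of 4 arrays, 1 array stood apart from the other 3 by Dixon's criterion, which chance meets in about 1 of 20 groups. Slc22a2 lay at -0.1915 on array W1.3 against -0.10 to -0.09 on the other arrays of W1, and Slc5a10 at -0.1145 on W4.2 against -0.53 to -0.47. Abcb9 lay at -0.04269 on W4.1 against 0.13 to 0.15, and Slc22a23 at -0.1817 on W3.4 against 0.03 to 0.07.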

How the results depend on the processing

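The 8 transporters of the 5-kidney test became 5 without the dye term, 4, 5 and 4 without mouse W1, W2 and W4, and 6 to 8 when single arrays were left out. The 1 transporter called among W1 to W4 became 2 with array weights and 0 without mouse W1, W2 or W3, and was 1 without any single array. The 1 transporter of the test of W5 became 2 after scaling to a common median absolute deviation, with 1 probe per named gene and with robust variances, 3 with values on all 16 arrays, 0 without mouse W1 or W2, without the 2 arrays with the fewest values and with a spread of W5 added, and 0 to 2 without single arrays. The 14 pair calls became 9 without the dye term and 9 to 15 without single arrays. They became 7 without W4.3 and W4.4, the 2 arrays with the fewest values. Leaving out mouse W1, W2 or W4 gave 4, 6 and 7 calls. Those fits hold no pair with the left-out mouse, so their counts cover fewer pairs of kidneys and cannot be set against 14. The median range lay between 0.196 and 0.309. For the W5 test, dye-adjusted means (1 call) and the spread of W5 were added after seeing the data, while dye term, array weights and block do not enter its plain means.

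Array numbers are shared between mice, and nothing more is known of them. Deviations of same-numbered arrays from the mean of their mouse and orientation correlated at -0.0709 to 0.205. Each such mean holds only a pair of arrays, whose deviations mirror each other, and arrays of unlike number were not compared. These correlations therefore cannot tell whether a number marks anything shared. With the numbers as a replicate block the 5-kidney count was 7, the count among W1 to W4 was 1, the pair calls were 15 and the median range 0.272. The number of arrays and of mice, not a read depth, limits the precision.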
